A study of Mus musculus with 14 samples.

Results

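The genes described here are those of microglia and of the macrophages at the brain's borders, measured by RNA-seq in mouse cerebral cortex. They were the 34 genes of the deposited table whose symbol stood on a list of members, out of 32830 genes listed. The list held 9 homeostatic microglia genes (Cx3cr1, P2ry12, P2ry13, Tmem119, Fcrls, Siglech, Sall1, Gpr34 and Olfml3). It held 19 genes that microglia share with other myeloid cells (Csf1r, C1qa, C1qb, C1qc, Aif1, Trem2, Tyrobp, Ctss, Cd68, Itgam, Ptprc, Ly86, Laptm5, Spi1, Irf8, Selplg, Fcer1g, Fcgr3 and Mpeg1) and 6 genes of border macrophages (Mrc1, Pf4, Lyz2, Cd163, F13a1 and Cd74). All 34 were found and all 34 passed the filter on low values, at least 10 normalised read counts in 2 or more libraries, which kept 22575 genes. The animals were SW strain mice, 14 days old, that carried the Aldh1l1-GFP reporter, in which regulatory DNA of the astrocyte gene Aldh1l1 drives green fluorescent protein. Every group came from mice with this reporter. Upper and deep cortical layers were separated by hand dissection, and each gave GFP-positive sorted cells (astrocytes, 3 libraries per layer), GFP-negative sorted cells (non-astrocytes, 2 per layer) and undissociated tissue (bulk tissue, 2 per layer), 14 libraries in 6 groups. The non-astrocyte groups are defined by the absence of the reporter alone, so microglia are 1 cell type among several in them. Values are normalised read counts, that is, reads per gene divided by 1 size factor per library, with 18226457 to 30316765 reads in genes per library.

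Microglia are the resident macrophages of the brain parenchyma. They depend on signalling through the receptor Csf1r, sense nucleotides through P2ry12 and the neuronal chemokine Cx3cl1 through Cx3cr1, and supply most of the brain's C1q, the complement protein that tags synapses for removal during postnatal development. Border macrophages of the meninges and perivascular spaces share the general myeloid genes and are marked by the mannose receptor Mrc1 and the scavenger receptor Cd163.

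The sort and the dissection could be read from other genes. Aldh1l1 itself had 2558.8 to 4516 normalised counts in the 6 astrocyte libraries (median 3864.6), 94.7 to 133 in the 4 non-astrocyte libraries and 681 to 1116 in the 4 bulk libraries, and the groups did not overlap. The summed level of 12 neuron markers was 5697 to 12010 in non-astrocytes and 166262 to 216473 in bulk tissue, with a mean in non-astrocytes of 0.048 times that in bulk tissue. Non-astrocytes also held more of the 10 mural cell markers (summed mean 27.8 times that of bulk tissue), the 10 endothelial markers (8.05 times) and the 10 meningeal fibroblast markers (9.98 times). In bulk tissue the 12 oligodendrocyte lineage markers summed to 44924 and 41940 in upper layers, against 154181 and 131995 in deep layers. Whether the libraries of a group stem from different animals is not stated in the labels. The p-values therefore speak only to how far these samples differ from each other, a spread that may be technical.

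The 9 homeostatic microglia genes were highest in non-astrocytes, intermediate in bulk tissue and, apart from Sall1, lowest in astrocytes. All 9 were higher in non-astrocytes than in bulk tissue, by a median log2 difference of 4.66 (range 3.83 to 5.15), where 61.6% of all genes tested were called, 30.5% higher and 31.1% lower. All 9 were lower in astrocytes than in non-astrocytes, by a median log2 difference of -6.30 (range -7.16 to -2.30), where 66.3% of all genes were called and 36.8% were called lower. The medians over all 22575 genes were -0.04 and -0.08. A gene was called at a Benjamini-Hochberg adjusted p below 0.05 in limma, fitted to log2(value + 1) of all 14 libraries, a scale on which the differences of low genes come out too small. In these mixtures fewer microglia and less RNA per microglial cell cannot be told apart.

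P2ry12, the ADP receptor that steers microglial processes towards injury, lies on chromosome 3 (GRCm38, chr3:59216272-59262871, minus strand). Its astrocyte libraries ran from 272.5 through a median of 504.5 to 832 normalised counts. Non-astrocyte libraries had 35771 and 50743 in upper layers and 45816 and 51732 in deep layers, and bulk libraries had 1321 and 1119.9 in upper layers and 1471 and 1244 in deep layers. The 3 fractions did not overlap. The log2 difference was -6.59 ± 0.24 (SE) for astrocytes against non-astrocytes (limma adjusted p = 4.02e-12) and 5.15 ± 0.26 for non-astrocytes against bulk tissue (adjusted p = 3.22e-10). P2ry13, a second ADP receptor encoded beside it at chr3:59207892-59210882 on the same strand, averaged 290 ± 75.7 in astrocytes (SD, n = 6), 22655 ± 3954 in non-astrocytes (n = 4) and 744 ± 82.6 in bulk tissue (n = 4). Exons of P2ry12 overlap those of Med12l on the opposite strand by 9 bases, and the sources used here do not give the strand setting of the counting.

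Cx3cr1, the fractalkine receptor, had 265.2, 354.4 and 548.8 normalised counts as the lowest, median and highest of the astrocyte libraries. Its non-astrocyte libraries had 23545 and 33828 in upper layers and 26838 and 33142 in deep layers, and its bulk libraries lay between 1481 and 1679. Each fraction stood apart from the others, with a log2 difference of -6.30 ± 0.18 for astrocytes against non-astrocytes (limma adjusted p = 4.04e-13) and 4.20 ± 0.20 for non-astrocytes against bulk tissue (adjusted p = 1.45e-10). Tmem119, a transmembrane protein used as a microglia marker, was lowest in astrocytes relative to non-astrocytes of the 9, at 63.8 to 243.5 normalised counts (median 119.8) against 12300 and 21035 in upper and 15382 and 19709 in deep layer non-astrocytes (log2 difference -7.16 ± 0.32, limma adjusted p = 1.4e-10). The remaining members of the group were Fcrls, an Fc receptor-like surface protein, Siglech, a sialic acid binding lectin, Gpr34, a receptor for lysophosphatidylserine, and the secreted protein Olfml3. Their mean levels were 70.9 (Gpr34) to 134.9 (Siglech) in astrocytes and 4748 (Olfml3) to 10289.8 (Fcrls) in non-astrocytes. In bulk tissue they were 184 (Gpr34) to 339.5 (Siglech). The fractions did not overlap for any of the 4, and the share of all genes without overlap is not given here.

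**Figure D1:**
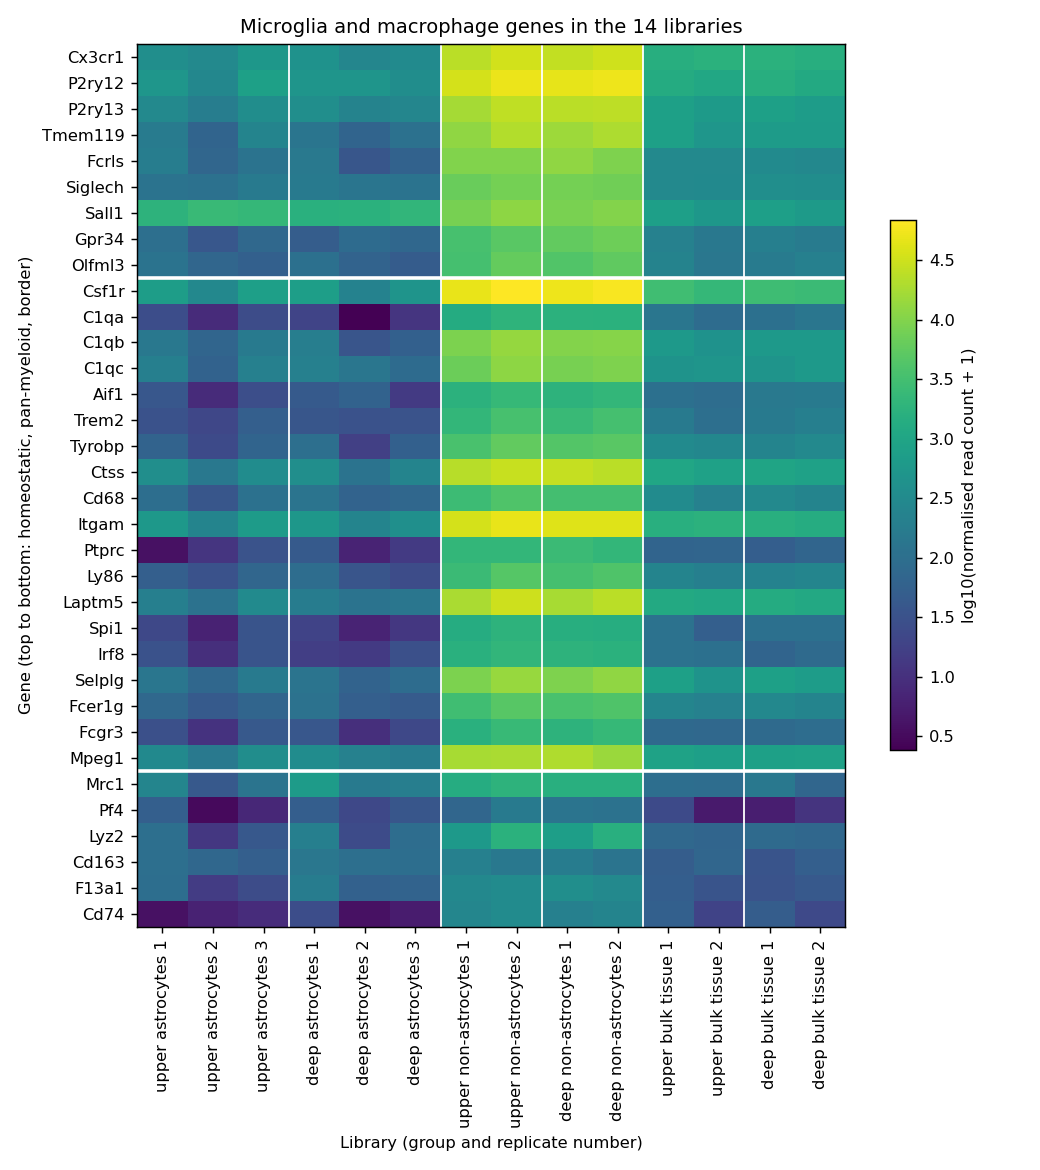
Each row is 1 of the 34 genes and each column 1 of the 14 libraries, coloured by log10 of the normalised read count plus 1. White lines part the 3 gene groups and the 6 groups of libraries. The 4 non-astrocyte columns are brightest in every row but that of Cd163, where deep layer astrocyte library 1 lies among them, and Sall1 is the 1 homeostatic gene that is brighter in astrocytes than in bulk tissue, at 1604 to 2557 against 549.9 to 774 normalised counts.

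The 19 general myeloid genes showed the same order of fractions as the homeostatic set. All 19 were higher in non-astrocytes than in bulk tissue (median log2 difference 4.17, range 3.60 to 5.15) and all 19 were lower in astrocytes than in non-astrocytes (median -6.65, range -7.38 to -5.39). All 19 were also lower in astrocytes than in bulk tissue (median -2.23, range -3.22 to -1.75), where 64.8% of all genes were called and 36.1% were called lower. No library of one fraction reached the range of another for any of the 19. The share of all genes without such overlap is not given here.

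Among receptors, Csf1r is the one through which the ligands Csf1 and Il34 keep microglia alive. Its astrocyte libraries ran from 225.5 through 605 to 797 normalised counts, against 47925 and 68302 in upper and 53656 and 62786 in deep layer non-astrocytes. Bulk libraries had 2946 and 2223 in upper and 2804 and 2601 in deep layers. The log2 difference was -6.88 ± 0.32 for astrocytes against non-astrocytes (limma adjusted p = 2.04e-10) and 4.45 ± 0.35 for non-astrocytes against bulk tissue (adjusted p = 8.18e-08). Exons of Csf1r overlap those of Hmgxb3 on the other strand by 873 bases. Trem2, a lipid-sensing receptor, and Tyrobp, the adaptor through which it signals, had mean levels of 34.1 and 53.5 in astrocytes, 2852 and 4693 in non-astrocytes and 157 and 285 in bulk tissue.

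The 3 chains of C1q are encoded side by side on chromosome 4 (C1qb at chr4:136880129-136886187, C1qc at chr4:136889804-136893065 and C1qa at chr4:136895917-136898803, all on the minus strand). C1qb had 35.5, 107.8 and 192 normalised counts as the lowest, median and highest astrocyte libraries, against 9126 and 13730.4 in upper and 10260.3 and 10646 in deep layer non-astrocytes and 439.7 to 626 in bulk tissue. C1qa had 1.42 to 25.8 in astrocytes, 1304 to 1921 in non-astrocytes and 88.2 to 136 in bulk tissue. Its lowest astrocyte value rests on 1 read. The log2 differences of astrocytes against non-astrocytes were -7.07 ± 0.49 for C1qa, -6.85 ± 0.38 for C1qb and -6.04 ± 0.34 for C1qc, each called.

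The remaining general myeloid genes included the transcription factors Spi1 (PU.1) and Irf8, which direct myeloid development, the protease Ctss, the lysosomal proteins Cd68 and Laptm5, the integrin chain Itgam (CD11b) and the leukocyte phosphatase Ptprc (CD45). Divided by exon length, non-astrocyte levels of the 34 genes ran from 19119 normalised counts per kilobase for Ctss, 18074 for P2ry12, 10074 for Csf1r and 10056 for C1qb down to 48.5 for F13a1 and 29.7 for Cd163. Library ranges of Ctss and P2ry12 overlapped (17018 to 21562 and 14050 to 20319 per kilobase), as did those of Csf1r and C1qb. Of the 6 border genes, 5 were among the 6 lowest per kilobase, and Lyz2 stood at rank 24 with 875. The length pooled the annotated exons of every transcript of a gene, so the ranks depend in part on the annotation. Ptprc, at rank 32, had 18313 such bases. Ptprc showed the largest log2 difference of astrocytes against non-astrocytes of the 34, at -7.38 ± 0.54. Its 95% interval (-8.536 to -6.215) overlapped that of Tmem119 (-7.845 to -6.464). Ptprc had 2.86 to 42.5 normalised counts in astrocytes against 2155 and 2110.1 in upper and 2632 and 2099.7 in deep layer non-astrocytes. The astrocyte values rest on 3 to 36 reads per library. Fcgr3 belongs to a family of near-identical Fc receptor genes, so its counts are uncertain where reads could fall on more than 1 copy.

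Promoters were examined because genes of all 3 groups were higher in non-astrocytes than in bulk tissue and Spi1 and Irf8, both members, bind known motifs. RefSeq sequence of 250 bases before to 50 bases after the transcription start (GRCm38.p6) was matched for 26 of the 34 genes, 32 promoters in all (Gpr34, Tmem119, C1qa, Cd74, Spi1, Tyrobp, Selplg and Csf1r were not matched). The core of the PU.1 site, GAGGAA on either strand, stood in 18 of the 32 member promoters (56.2%) and in 9289 of 32851 promoters of that length (28.3%). By group it stood in 3 of 9 homeostatic promoters (33.3%), 11 of 17 general myeloid promoters (64.7%) and 4 of 6 border promoters (66.7%). Some genes have more than 1 promoter, and 2 overlapping windows of Fcgr3 hold the same match. Counted by gene, 16 of the 26 had a match, against 8446 of 27025 genes over all promoters. By group these were 3 of 7 homeostatic, 10 of 14 general myeloid and 3 of 5 border genes. The contrast between groups was thus smaller by gene than by promoter. The longer GAGGAAGT, which contains GAGGAA, was found on either strand in 4 of the 32 (12.5%), those of Ctss, C1qc, Pf4 and F13a1 and none of the 9 homeostatic ones, against 3.2% of all promoters. The joint site of PU.1 and an interferon regulatory factor, GGAA and GAAA parted by 2 bases of any kind, stood in 1 of the 32 (3.12%), that of Cd68, against 2.72% of all, and there it overlapped a GAGGAA match. These matches are a description of letters and not of binding. The 6 promoters shown are the neighbours P2ry12 and P2ry13, the first without and the second with a match, then C1qb and Trem2 with 1 match each, and Itgam and Mrc1 with 3 each. Capitals mark GAGGAA or its reverse complement TTCCTC, and each runs 5′ to 3′ on the gene's strand. They lie at chr3:59262936-59263235 (P2ry12, minus), chr3:59210833-59211132 (P2ry13, minus), chr4:136886151-136886450 (C1qb, minus), chr7:128062390-128062689 (Itgam, plus), chr17:48346151-48346450 (Trem2, plus) and chr2:14229164-14229463 (Mrc1, plus).
P2ry12: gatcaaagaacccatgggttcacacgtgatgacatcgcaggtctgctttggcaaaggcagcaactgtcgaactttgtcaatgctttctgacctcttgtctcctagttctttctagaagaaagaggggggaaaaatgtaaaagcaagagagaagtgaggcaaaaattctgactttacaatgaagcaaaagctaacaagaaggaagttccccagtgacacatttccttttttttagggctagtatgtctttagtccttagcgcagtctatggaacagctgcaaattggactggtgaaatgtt
P2ry13: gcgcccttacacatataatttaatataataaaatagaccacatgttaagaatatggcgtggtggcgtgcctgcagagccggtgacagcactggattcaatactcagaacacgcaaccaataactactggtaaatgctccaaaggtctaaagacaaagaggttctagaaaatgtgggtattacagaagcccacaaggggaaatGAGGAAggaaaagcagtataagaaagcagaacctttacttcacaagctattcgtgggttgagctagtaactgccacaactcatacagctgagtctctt
C1qb: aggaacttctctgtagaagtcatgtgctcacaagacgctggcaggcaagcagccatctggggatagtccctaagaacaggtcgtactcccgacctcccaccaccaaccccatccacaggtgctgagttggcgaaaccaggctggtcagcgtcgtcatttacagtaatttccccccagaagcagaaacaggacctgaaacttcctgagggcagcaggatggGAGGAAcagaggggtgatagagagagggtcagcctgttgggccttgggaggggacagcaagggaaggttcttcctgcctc
Itgam: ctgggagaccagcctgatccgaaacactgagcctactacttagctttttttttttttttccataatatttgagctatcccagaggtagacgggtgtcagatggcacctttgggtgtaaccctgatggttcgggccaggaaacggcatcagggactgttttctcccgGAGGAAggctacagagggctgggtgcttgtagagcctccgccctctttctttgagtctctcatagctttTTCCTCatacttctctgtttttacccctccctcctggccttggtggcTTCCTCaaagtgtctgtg
Trem2: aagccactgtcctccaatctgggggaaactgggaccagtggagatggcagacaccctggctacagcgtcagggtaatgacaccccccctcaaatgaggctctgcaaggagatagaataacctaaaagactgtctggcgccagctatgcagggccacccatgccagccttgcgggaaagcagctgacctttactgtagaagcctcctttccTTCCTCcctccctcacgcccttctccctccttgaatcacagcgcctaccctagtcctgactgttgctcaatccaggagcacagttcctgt
Mrc1: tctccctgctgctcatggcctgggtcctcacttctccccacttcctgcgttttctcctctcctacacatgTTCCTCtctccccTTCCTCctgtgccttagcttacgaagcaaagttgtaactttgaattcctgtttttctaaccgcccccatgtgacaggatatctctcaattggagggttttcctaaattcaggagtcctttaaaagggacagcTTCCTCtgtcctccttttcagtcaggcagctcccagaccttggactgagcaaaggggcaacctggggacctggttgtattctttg
Counted from the start to the first base of the match, the site lay 48 bases before the start in P2ry13, 30 in C1qb and 40 in Trem2. Itgam had matches 84 and 15 bases before and 32 after the start, and Mrc1 had matches 180, 167 and 35 bases before it.

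The 6 border macrophage genes were also higher in non-astrocytes than in bulk tissue, all 6 of them, but by less (median log2 difference 3.32, range 1.66 to 3.97). All 6 were lower in astrocytes than in non-astrocytes (median -2.87, range -5.23 to -0.83). The libraries did not overlap for 5 of them, again without a share over all genes. Against bulk tissue the astrocyte libraries were higher for Cd163, lower for Cd74, and not called for Mrc1, Pf4, Lyz2 and F13a1. The astrocyte and bulk libraries overlapped for all 6, the called Cd163 and Cd74 included. In that comparison 28.8% of all genes were called higher and 36.1% lower. These differences in size between the 3 gene groups were not tested.

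Mrc1, the mannose receptor CD206, had 41.4, 173.7 and 672.7 normalised counts as the lowest, median and highest of the 6 astrocyte libraries. Non-astrocyte libraries had 1375 and 1818 in upper and 1539 and 1524 in deep layers, against bulk libraries with 96.8 and 92.2 in upper and 148 and 70.2 in deep layers. Astrocytes stayed below non-astrocytes in every library but overlapped bulk tissue, and the log2 differences were -3.16 ± 0.47 for astrocytes against non-astrocytes (limma adjusted p = 4.35e-05), 3.97 ± 0.52 for non-astrocytes against bulk tissue (adjusted p = 1.49e-05) and 0.81 ± 0.47 for astrocytes against bulk tissue (adjusted p = 0.148). Without upper layer astrocyte library 2, the lowest, the last of these was 1.16 and was called. Pf4, the chemokine CXCL4, had 2.18 to 52.5 in astrocytes, 71.4 to 162 in non-astrocytes and 4.01 to 23 in bulk tissue. Its astrocyte and bulk libraries overlapped, with a log2 difference of 1.06 ± 0.66 (adjusted p = 0.173), which became 1.50 and was called without the same library and 1.43 and called in DESeq2.

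Cd163, the scavenger receptor for haemoglobin, was the member with the smallest separation. It had 99.3, 73 and 51.8 normalised counts in upper and 138, 100.7 and 97.3 in deep layer astrocytes, 205 and 145 in upper and 176 and 123 in deep layer non-astrocytes, and 47.9 and 70.1 in upper and 34.1 and 52.7 in deep layer bulk tissue. Non-astrocytes lay above bulk tissue in every library, while deep layer astrocyte library 1 lay within the non-astrocyte range. The log2 difference was -0.83 ± 0.24 for astrocytes against non-astrocytes (limma adjusted p = 0.00712) and 0.84 ± 0.24 for astrocytes against bulk tissue (adjusted p = 0.00679). Beside this, Cd3d, a T cell receptor subunit, was listed at 72.8 to 146 in all 14 libraries, and Siglec1, another border macrophage gene, at 178 to 369, both chosen after their values were seen. Their part in the Cd163 values was not tested.

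Lyz2, lysozyme of myeloid cells, differed between libraries of 1 fraction. Its non-astrocyte libraries had 616 and 1672 in upper and 764 and 1554 in deep layers, and in both layers the library numbered 2 was the high one. The same libraries held the neutrophil genes S100a8 and S100a9, which encode calprotectin and were named after their values were seen. S100a8 had 1860 in upper and 1633 in deep layer library 2, against 39.9 and 28.3 in the libraries numbered 1. The summed level of 10 monocyte and neutrophil markers was 12031 and 10009 in these libraries 2, against 4669.5 and 4868 in libraries 1, and its part in the Lyz2 difference was not tested. Without both libraries numbered 2, an alternative added after the data were seen, all 34 genes were still called higher in non-astrocytes than in bulk tissue, while Pf4 was no longer called lower in astrocytes than in non-astrocytes (log2 difference -2.28). Lyz2 has a near-identical copy, Lyz1, so its counts are uncertain where reads could fall on both.

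F13a1, the A chain of coagulation factor XIII, had 14.2 to 177 normalised counts in astrocytes (median 59.6), 289 to 384 in non-astrocytes and 31.7 to 50.7 in bulk tissue. Its astrocyte and bulk libraries overlapped. Cd74, the invariant chain that escorts MHC class II, was the border gene most depleted from astrocytes, with 2.84 to 25.96 (median 4.84) against 266 and 339 in upper and 213 and 245.5 in deep layer non-astrocytes (log2 difference -5.23 ± 0.50, limma adjusted p = 1.97e-07). In bulk tissue Cd74 had 54.4 and 18 in upper and 49.3 and 22.2 in deep layers, with the libraries numbered 1 higher in both layers.

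**Figure D2:**
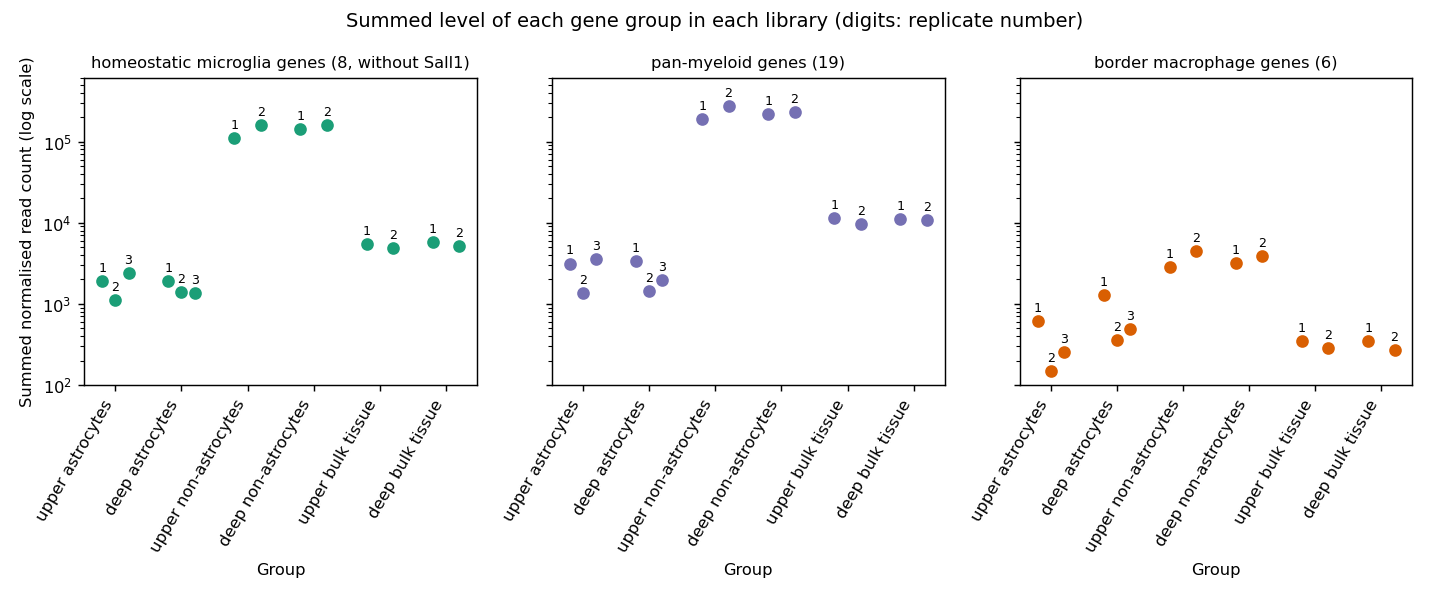
Points give the summed normalised read count of each gene group in each of the 14 libraries on a log axis, with replicate numbers beside them. Homeostatic (without Sall1) and general myeloid sums rise in the order astrocytes, bulk tissue, non-astrocytes, while border sums in astrocytes (148 to 1266) span those of bulk tissue (269 to 349).

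What remained of these genes in the astrocyte libraries differed between the gene groups. Setting Sall1 aside, the mean level in astrocytes was 0.765% (Tmem119) to 2.52% (Cd68) of the mean in non-astrocytes over the other 27 homeostatic and general myeloid genes, with a median of 1.2%. Over the 6 border genes it was 3.08% (Cd74), 6.82% (Lyz2), 15.4% (Mrc1), 22.1% (F13a1), 24.1% (Pf4) and 57.5% (Cd163). The 2 ranges did not overlap. The summed border genes amounted to 10.6 to 65.5 counts per 100 counts of the 8 homeostatic genes without Sall1 in the astrocyte libraries, against 2.25 to 2.8 in non-astrocytes and 5.25 to 6.35 in bulk tissue. Without deep layer astrocyte library 1, the highest, the astrocyte range was 10.6 to 35.2. No test was made of this ratio.

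Deep layer astrocyte library 1 stood apart in the border genes. It had the highest astrocyte value of Mrc1 (672.7, next 258.8), Lyz2 (201.8, next 100.3), F13a1 (177, next 95.5), Cd163 (138, next 100.7) and Cd74 (25.96, next 7.71), and of the further border macrophage genes Lyve1 (153, next 86.7) and Cbr2 (112, next 30.6), the last pair chosen after their values were seen. It was also highest for the homeostatic gene P2ry13 (381, next 367). Among general myeloid genes it was highest for Tyrobp (101.5, next 63.9), Fcer1g (113, next 75.4), Ly86 (92.1, next 69.4) and Ptprc (42.5, next 32). Cd68, C1qb and C1qc were highest there too, by less. The P2ry12 level of 504 and the Cx3cr1 level of 448.5 in that library lay inside the range of the other 5 libraries. Without it the astrocyte level as a share of the non-astrocyte mean was 9.86% for Mrc1, 4.67% for Lyz2, 15.6% for F13a1, 20.2% for Pf4, 52% for Cd163 and 1.74% for Cd74, so Cd74 then fell within the range of the homeostatic and general myeloid genes.

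**Figure D3:**
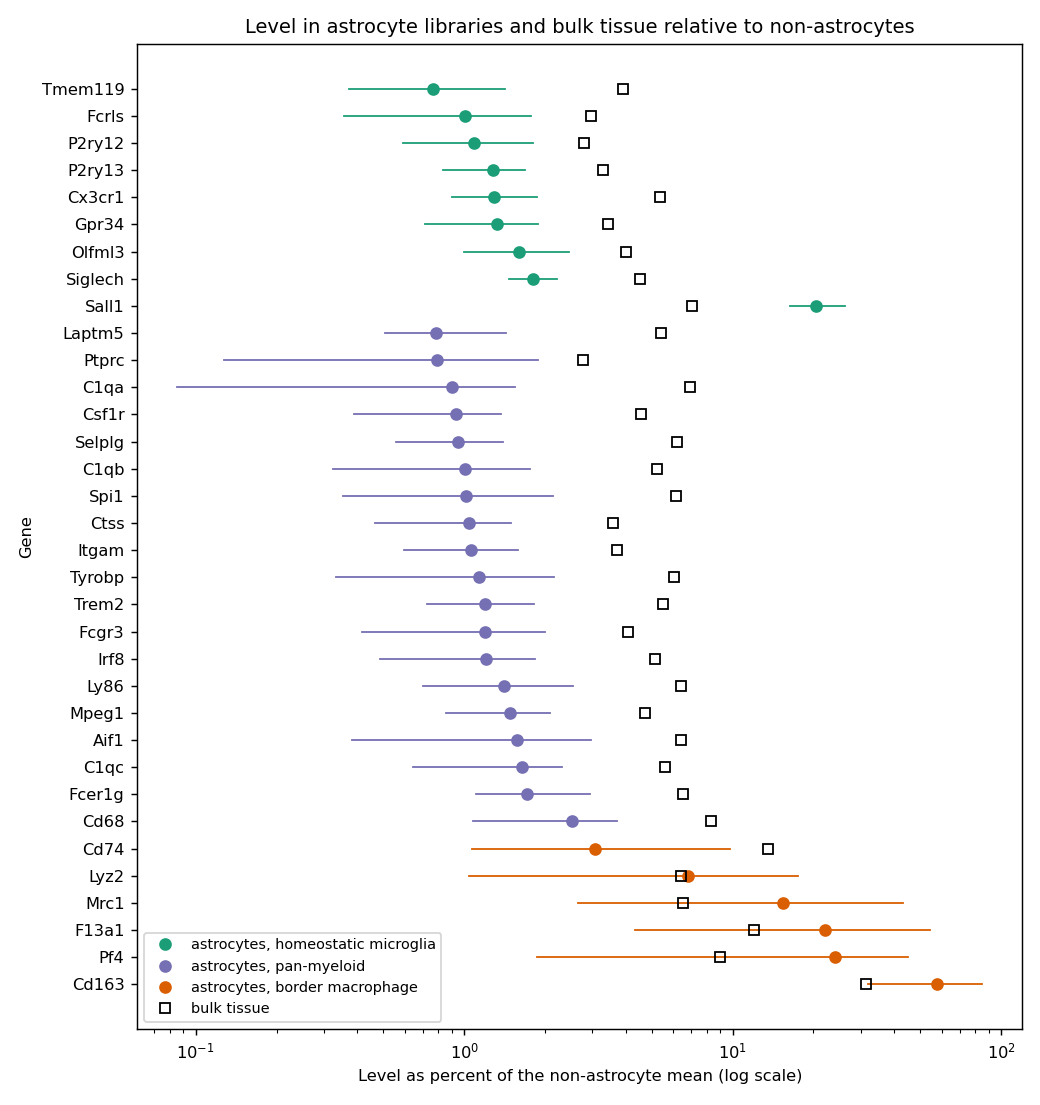
Filled points give the mean level of each gene in the 6 astrocyte libraries, and lines the lowest and highest library, as a percent of the non-astrocyte mean on a log axis. Open squares give the bulk tissue mean on the same scale. Homeostatic and general myeloid points lie near 1%, with Sall1 at 20.4%, and the border points between 3.08% and 57.5%.

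Sall1, the zinc finger transcription factor that maintains microglial identity, was the exception in the homeostatic set. Astrocyte libraries had 1839.9, 2557 and 2266 normalised counts in upper and 1604, 1685 and 2028 in deep layers, against 8511 and 11741 in upper and 8777 and 10062 in deep layer non-astrocytes, and 772 and 549.9 in upper and 774 and 655 in deep layer bulk tissue. Each fraction was apart from the other 2, with astrocytes in the middle. The log2 difference was -2.30 ± 0.14 for astrocytes against non-astrocytes (limma adjusted p = 1.5e-09) and 1.53 ± 0.14 for astrocytes against bulk tissue (adjusted p = 1.79e-07), where the other 8 homeostatic genes were all lower in astrocytes (-2.50 to -1.34). Of the 34 genes, Sall1 and Cd163 were the 2 called higher in astrocytes than in bulk tissue, and 28 were called lower. Of all genes, 28.8% were called higher and 36.1% lower in that comparison.

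A further 20 microglia genes outside the 34 gave a similar count. All 20 were lower in astrocytes than in non-astrocytes (median log2 difference -5.63), where 36.8% of all genes were called lower. All 20 were higher in non-astrocytes than in bulk tissue (median 4.29), where 30.5% of all genes were called higher. The log2 differences of non-astrocytes against bulk tissue included those of Vsir, an immune checkpoint protein (4.20), Hpgds, a prostaglandin D synthase (4.24), and Bin2 (4.42), which were among the smallest p-values of the list. Against bulk tissue 15 were lower in astrocytes and 4 were higher, where 36.1% of all genes were called lower and 28.8% higher. The 4 were Vsir (1.38), the protease Lgmn (0.62), the cyclooxygenase Ptgs1 (1.61) and the hexokinase Hk2 (1.27), the last 3 chosen after their values were seen. Of 14 further border macrophage genes, 13 passed the filter (Ccl8 did not). In non-astrocytes 10 of them were higher than in bulk tissue and 1, Clec12a (named after its value was seen), was lower (median 2.14). Of all genes, 30.5% were called higher and 31.1% lower there. For astrocytes against bulk tissue 3 of the 13 were called higher, 1 lower and 9 not called, beside 28.8% and 36.1% of all genes called higher and lower. Folr2, a folate receptor of border macrophages, was 1 of the 3, with 46.3 to 78 normalised counts in astrocytes, 28.4 to 39.5 in non-astrocytes and 1.85 to 11.8 in bulk tissue. Its log2 difference was 3.30 ± 0.40 for astrocytes against bulk tissue (limma adjusted p = 2.77e-06) and 0.86 ± 0.40 for astrocytes against non-astrocytes (adjusted p = 0.0696).

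Upper and deep layers were compared within each fraction. None of the 34 genes was called between layers in non-astrocytes, where 0.00443% of all genes were called, and none in bulk tissue, where 0.456% were. No member had an unadjusted p below 0.05 in either comparison in limma, edgeR or DESeq2. The median log2 difference of upper against deep layers over the 34 genes was -0.05 in non-astrocytes (range -0.61 to 0.39) and -0.08 in bulk tissue (range -0.67 to 0.59). With 2 libraries a side, the 95% interval lay within a 2-fold difference in either direction for 11 of the 34 genes in non-astrocytes and 12 in bulk tissue. Half-widths of these intervals ran from 0.47 (Siglech) to 2.19 (Pf4) on the log2 scale in both.

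Gpr34 showed the largest layer difference of the 34 in non-astrocytes, with 3505.5 and 5023 normalised counts in upper and 5892 and 6979 in deep layers. The libraries did not overlap, and the log2 difference was -0.61 with a 95% interval of -1.43 to 0.21 (limma adjusted p = 1.0). In bulk tissue Gpr34 had 217 and 144 in upper and 204 and 169 in deep layers, which overlapped. Aif1, the calcium-binding protein known as Iba1, had 106 and 92.2 in upper and 150.4 and 165 in deep layer bulk tissue, a log2 difference of -0.67 (interval -2.07 to 0.73, adjusted p = 1.0). Aif1 differed by 0.03 in non-astrocytes, where 1756 and 2308 in upper layers overlapped 1843 and 2108 in deep layers. Setting the layer difference of non-astrocytes against that of bulk tissue, limma called none of the 34 genes and 0.0576% of all genes. No member reached an unadjusted p below 0.05 there in limma, edgeR or DESeq2.

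**Figure D4:**
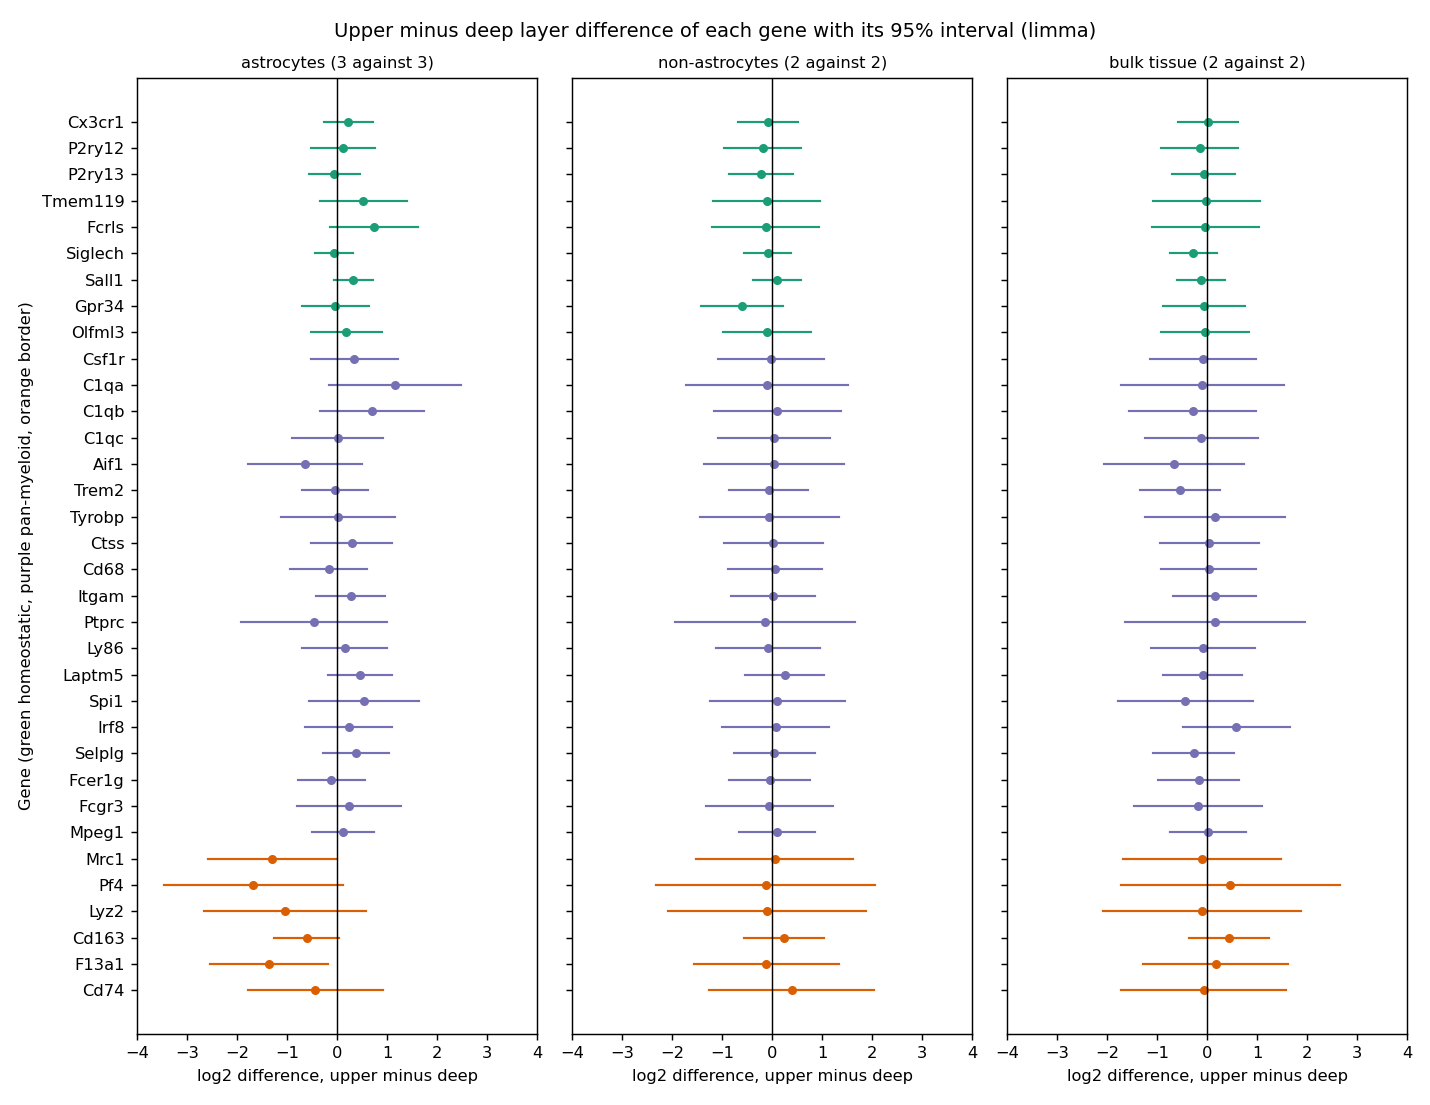
Points give the log2 difference of upper minus deep layers for each of the 34 genes with its 95% interval, in astrocytes, non-astrocytes and bulk tissue. Intervals of all 34 genes cross 0 in non-astrocytes and bulk tissue, and the 6 border genes lie below 0 in astrocytes (-1.68 to -0.44).

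In astrocytes none of the 34 genes was called between layers, where 0.0797% of all genes were called, and 2 had an unadjusted p below 0.05 in limma (0 in edgeR and 1 in DESeq2). The 6 border genes all had log2 differences below 0 (median -1.18), and the 28 homeostatic and general myeloid genes had a median of 0.20. Mrc1 had 258.8, 41.4 and 123 normalised counts in upper and 672.7, 156 and 191 in deep layer astrocytes. The layers overlapped, and the log2 difference was -1.30 ± 0.60 (limma adjusted p = 0.48), or -0.65 without deep layer astrocyte library 1. F13a1 had the smallest p of the 34, with 95.5, 14.2 and 25.4 in upper and 177, 56.7 and 62.4 in deep layers, which overlapped (log2 difference -1.36 ± 0.55, adjusted p = 0.437, and -0.84 without that library). The log2 difference of Cd74 was -0.44 with that library and 0.42 without it.

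Deviations of same-numbered astrocyte libraries correlated weakly between layers (0.203, 0.149 and 0.171). Whether the number marks a shared source was not tested. With that number as a block Lyz2 was called lower in upper than in deep layers. Lyz2 had 100.3, 12 and 39.7 normalised counts in upper and 201.8, 24.1 and 93.1 in deep layer astrocytes 1, 2 and 3, so each upper library was below the deep library of its number. The same held in all 3 pairs for Mrc1, F13a1 and Cd163, in 2 pairs for Pf4 and in 1 for Cd74. It held in all 3 pairs for none of the 28 homeostatic and general myeloid genes and for 18.0% of all genes tested. Of the 34 genes the block called Lyz2 alone. The log2 difference was -1.05 in both fits, with an adjusted p of 0.613 in limma and 0.0312 in limma with the block, in which 188 of all genes were called against 18. Setting the astrocyte layer difference against the non-astrocyte one, limma called none of the 34 genes and 0.00443% of all genes. There, too, no member reached an unadjusted p below 0.05 in limma, edgeR or DESeq2.

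Ligands of the members' receptors fell in different fractions. Csf1, a ligand of Csf1r, had 1489 to 1967 normalised counts in astrocytes (median 1739.9), 1220 and 1684 in upper and 1083 and 1292 in deep layer non-astrocytes, and 260 to 305.5 in bulk tissue. Its log2 difference was 2.62 ± 0.14 for astrocytes against bulk tissue (limma adjusted p = 1.64e-10) and 0.40 ± 0.14 for astrocytes against non-astrocytes (adjusted p = 0.0167), whose libraries overlapped. Il34, the other ligand of Csf1r, had 2.84 to 42.5 in astrocytes, 377 to 532 in non-astrocytes and 325.5 to 527.5 in bulk tissue. It was lower in astrocytes than in bulk tissue (log2 difference -4.29 ± 0.50) and was not called for non-astrocytes against bulk tissue (0.18 ± 0.55, adjusted p = 0.793).

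Cx3cl1, the ligand of Cx3cr1, was highest in bulk tissue, with 12.8 to 75.2 in astrocytes, 469 to 1105 in non-astrocytes and 11042.5 to 14161 in bulk tissue. Tgfb1, the cytokine that maintains the homeostatic microglia genes, ran with the members, at 4.26 to 50.8 in astrocytes, 1547 and 2582 in upper and 1510 and 2155 in deep layer non-astrocytes, and 80.1 to 136 in bulk tissue. The log2 difference of Tgfb1 was 4.10 ± 0.55 for non-astrocytes against bulk tissue (limma adjusted p = 1.79e-05). Of the 18 signalling partners listed, 16 were higher in non-astrocytes than in bulk tissue, where 30.5% of all genes were called higher. Cx3cl1 was lower, beside 31.1% of all genes, and the median log2 difference of the partners was 3.86. The smallest p-values were those of the TGF-beta receptor Tgfbr1 (4.18), the phosphatase Inpp5d (4.26), the ATP-gated channel P2rx7 (3.63) and Tgfbr2 (3.56). None of the 4 ligands was called between layers in any fraction.

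**Figure D5:**
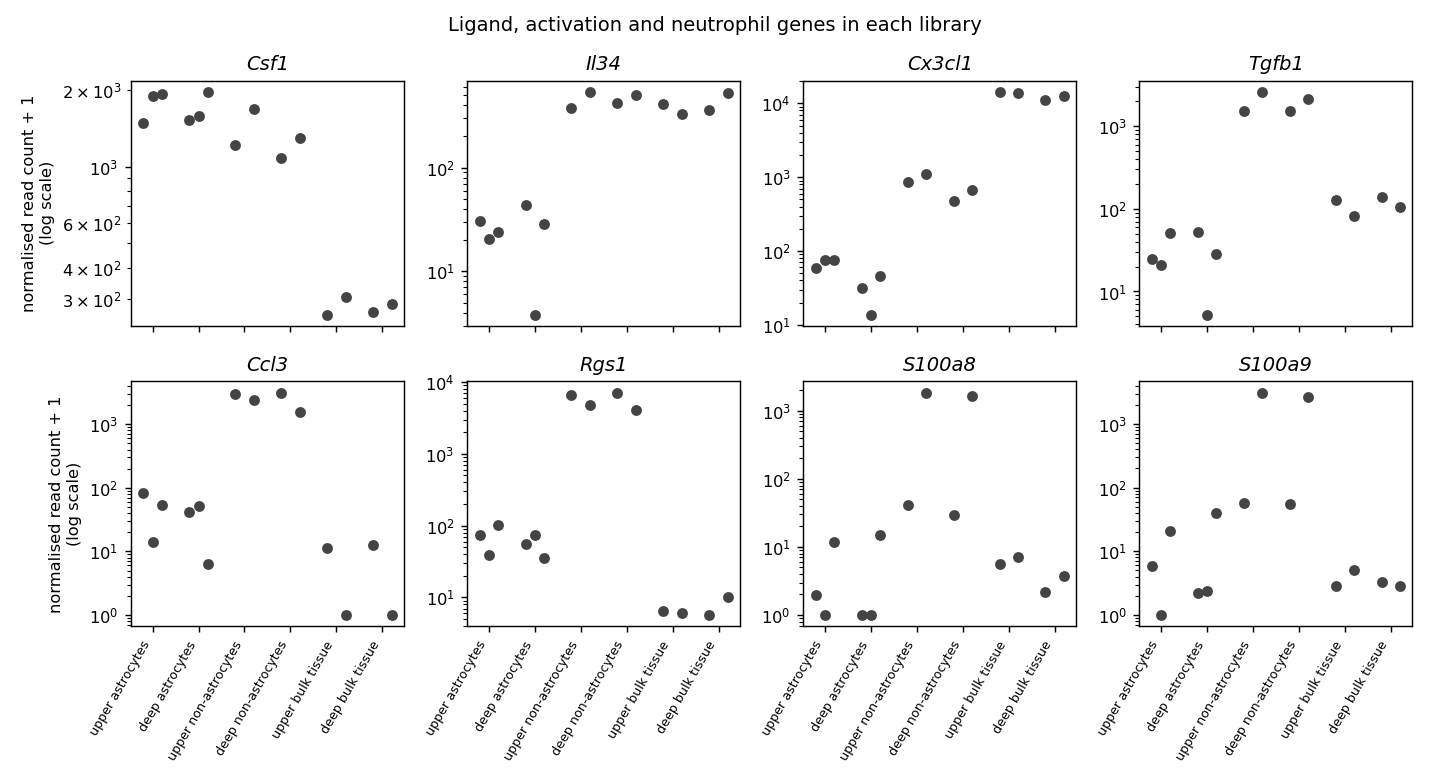
Each panel gives the normalised read count plus 1 of 1 gene in the 14 libraries on a log axis, in the order upper and deep astrocytes, non-astrocytes and bulk tissue. Csf1 lies highest in both sorted fractions, Cx3cl1 in bulk tissue, Ccl3 and Rgs1 in non-astrocytes, and S100a8 and S100a9 are high in 1 non-astrocyte library of each layer.

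Of 16 genes known to be induced in microglia by enzymatic dissociation, 14 were higher in non-astrocytes than in bulk tissue. In that comparison 30.5% of all genes were called higher and 31.1% lower. The median log2 difference of the 16 was 5.17, and it was 4.18 over the 34 members. The immediate early gene Egr1 was lower (-1.06) and Fos, another, was not called (0.05, limma adjusted p = 0.824), both named after their values were seen. Rgs1, a regulator of G protein signalling, had 6660 and 4848 normalised counts in upper and 7118 and 4061 in deep layer non-astrocytes, against 4.7 to 9.24 in bulk tissue (log2 difference 9.64 ± 0.33, limma adjusted p = 8.62e-12). The chemokine Ccl4 had 1110.2 and 744 in upper and 1117 and 556 in deep layer non-astrocytes and was listed at 0 in 3 of the 4 bulk libraries, with 1 read in the other. Zfp36, an RNA-binding protein that destabilises cytokine messages, had 9155.5 to 23245 in non-astrocytes and 112 to 139 in bulk tissue, and Nfkbia, the inhibitor of NF-kappaB, had 1757 to 4266 in non-astrocytes and 143 to 194 in bulk tissue. Every library of non-astrocytes lay above every bulk library for these 4 genes, and the part of the dissociation in the members' own differences was not tested. Several brain cell types besides microglia express Zfp36 and Nfkbia. In astrocytes against bulk tissue Rgs1 (log2 difference 3.09), Ccl4 (3.43), Zfp36 (2.05) and Nfkbia (2.53) were also called higher. Of the 16, Fos (-2.39), Egr1 (-5.46) and Il1b (-2.14), the last named after its value was seen, were called lower there. In that comparison 28.8% of all genes were called higher and 36.1% lower.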

How the data were processed

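The submitters sequenced cDNA made with NuGEN's amplification kit, per the labels' protocols, from 14 libraries. The submitters' processing notes list GRCm38 and the tools TopHat2 2.0.11, CASAVA, DESeq2 (without a version) and HTSeq 0.6.1p1. The deposited signal is read counts scaled by a size factor for each library, since 100% of the values came out as whole reads within 1e-06, and recovered reads in genes ran from 18226457 to 30316765. Depth limits the low genes, and all errors cover these libraries only. Groups follow the sample titles, although another label of both upper layer sorted groups names bulk tissue.

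Genes were kept if the value reached 10 in at least 2 libraries (22575 genes). limma 3.58.1 in R 4.3.3 (trend, robust) was fitted to log2(value + 1) with 6 group means and 8 residual degrees of freedom, and p-values were adjusted by Benjamini-Hochberg over all genes of a comparison. Fraction comparisons weigh both layers equally. edgeR 4.0.16 and DESeq2 1.42.0 on recovered reads, TMM scaling, a pseudocount of 5, no filter, a replicate block and leaving out each library were alternatives. The scripts were tested on simulated data. Lengths, symbols and coordinates are from GENCODE M21 (GRCm38), and 32007 of 32830 identifiers matched.

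The block took same-numbered libraries of the layers as pairs, a pairing read from the data. Deviations of same-numbered astrocyte libraries from their group means correlated weakly, at 0.203, 0.149 and 0.171 (Pearson, over genes). Values for astrocyte libraries of unlike number are not given here. Members and lists were chosen with earlier results of these data known. All members are accounted for. From other lists, up to 4 called genes with the smallest p, the ligands Csf1, Il34, Cx3cl1 and Tgfb1, and Aldh1l1 were named, and others where the text says so. One gene that the naming rule selected is not reported here.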

Additional observations from a re-analysis of the deposited data

Results flagged for a closer look

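In each of the 3 fractions, with both layers pooled, the highest and lowest library of every gene were set against the rest by Dixon's criterion. It singled out 5 of 102 sets, and chance flags about 1 in 20. Mrc1 had 672.7 normalised counts in deep layer astrocyte library 1, against 258.8 in the next astrocyte library. Cd74 had 25.96 in the same library, against 7.71 in the next. That library held the highest astrocyte values of 5 of the 6 border macrophage genes, and also those of P2ry13 and some general myeloid genes. Ptprc had 2632 in deep layer non-astrocyte library 1, against 2155 in the next, and 51.7 in deep layer bulk library 1, below 65.4 in the next lowest. C1qb had 439.7 in upper layer bulk library 2, below 596 in the next lowest.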

How the results depend on the processing

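The number of the 34 genes called stayed 34 for non-astrocytes against bulk tissue in all 21 alternatives, was 33 or 34 for astrocytes against non-astrocytes, 30 to 32 for astrocytes against bulk tissue, and 0 between layers and for differences of layer differences, except 1 with the replicate block in astrocyte layers. Of the single-gene values, 2242 kept direction and call, 4 gained a call, 1 lost it and 2 turned. Lyz2 in astrocytes against bulk tissue turned to 0.06 in edgeR, and Cd74 in upper against deep layer astrocytes to 0.42 without deep layer astrocyte library 1 (-0.98 to 0.42 with 1 library left out). The cause was not tested. Leaving out the filter moved the median of all genes for astrocytes against non-astrocytes to -0.205, where the members' median was -6.30. The numbers of all genes called between layers depended on the fit. For non-astrocytes (1 gene) they were 7 in edgeR, 139 in DESeq2, 2 with a pseudocount of 5, 13 with no filter, 33 with the replicate block, 0 without both libraries numbered 2 and 0 to 12 with 1 library left out. For bulk tissue (103) they were 170 in edgeR, 428 in DESeq2, 231 with a pseudocount of 5, 261 with the replicate block and 11 to 214 with 1 library left out. For astrocytes (18) they were 142 in DESeq2, 188 with the replicate block and 12 to 56 with 1 library left out. For the layer difference of non-astrocytes minus bulk tissue (13) they were 21 in edgeR, 53 in DESeq2, 0 without both libraries numbered 2 and 0 to 18 with 1 library left out. For astrocytes minus non-astrocytes (1) they were 59 in DESeq2, 4 with the replicate block, 0 without both libraries numbered 2 and 0 to 2 with 1 library left out. Same-numbered libraries of non-astrocytes (0.436) and bulk tissue (0.094) formed only 2 pairs each. The non-astrocyte libraries numbered 2 shared high S100a8 and Lyz2 in both layers. Whether a number marks a shared source was not tested, and limma without the block took these libraries as unpaired. With the block, too, none of the 34 genes was called between layers in these 2 fractions. Low counts limit Pf4, Cd74, C1qa, Ptprc and Spi1, among others, in astrocytes.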

Other observations

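Of 6 genes of the MHC class II pathway, 4 were higher and 1 lower in non-astrocytes than in bulk tissue, where 30.5% of all genes were called higher and 31.1% lower. H2-Aa, an antigen-presenting chain, and H2-DMb1, which helps load it, were among the 4 (log2 differences 3.80 and 3.62, limma adjusted p = 1.84e-05 and 1.94e-05), at 92.1 to 167 and 57.3 to 95.1 normalised counts in non-astrocytes, against 5.01 to 16.4 and 3.69 to 10.2 in bulk tissue. None of the 6 was called between layers in non-astrocytes or bulk tissue, and their log2 differences of upper against deep layers ran from -1.06 (H2-Ab1) to 1.25 (H2-DMa) in non-astrocytes and from -1.18 (H2-Ab1) to 2.07 (H2-Eb1) in bulk tissue. Ciita, the coactivator of these genes, was the 1 called lower in non-astrocytes than in bulk tissue (-1.33), with 137 to 244 in astrocytes, 23.3 to 55 in non-astrocytes and 63.1 to 106 in bulk tissue.

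Of 14 genes of proliferative-region and disease-associated microglia, 8 were higher and 4 lower in non-astrocytes than in bulk tissue, beside the same 30.5% and 31.1% of all genes. Clec7a, a pattern recognition receptor, had 47.6 to 64.6 normalised counts in non-astrocytes and 0 to 3 in bulk tissue. Itgax, the integrin chain CD11c, had 30.8 to 49.9 in non-astrocytes and 0 to 3.53 in bulk tissue, where it was listed at 0 in 3 of 4 libraries. Cd9, a tetraspanin, was higher in non-astrocytes than in bulk tissue (log2 difference 1.93), and Fabp5, a fatty acid binding protein, was lower (-1.42) and was highest in astrocytes, at 5931 to 8691 normalised counts against 469.9 to 577 in non-astrocytes.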
